A study of Mus musculus with 37 samples.

Results

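Late diabetes was compared between a type 2 and a type 1 mouse model by asking of every gene whether its diabetic change differed between them. The quantity tested was the interaction, (6m-D2 minus 6m-CT) minus (24w-D1 minus 24w-CT) on the log2 scale, so a positive value means a larger rise, or a smaller fall, in the type 2 model. The 17 libraries of these 4 groups, of 37 in the series, were used whole, and 17357 of 32108 genes passed the filter on low counts. Every library was RNA isolated from podocyte ribosomes by translating ribosome affinity purification (TRAP) from kidneys of C57BL/6 mice. The 4 libraries of 6m-CT came from eNOS-/- mice of 6 months, which lack endothelial nitric oxide synthase and were labelled normal, and the 3 of 6m-D2 from eNOS-/- db/db mice of the same age, which also lack a working leptin receptor. The 5 libraries of 24w-CT came from mice of 8 months without streptozotocin (STZ), a toxin of insulin-producing cells, and the 5 of 24w-D1 from mice of 8 months at 24 weeks of STZ. No genotype was stated for the type 1 model, so the models differ in eNOS genotype as labelled, in age, and in how diabetes arose. These differences cannot be told apart from the type of diabetes in any value of the interaction. The deposited tables are named for a podocin-driven Cre recombinase, podocin being a protein of podocytes.

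Podocytes are epithelial cells that cover the glomerular capillaries from outside, and their interlocking foot processes carry the slit diaphragm that filters plasma. They secrete large amounts of matrix and membrane protein, which fold in the endoplasmic reticulum with the help of chaperones. Loss of podocyte proteins, scarring of the glomerulus and injury of the neighbouring tubules are known features of diabetic kidney disease, in which both kinds of diabetes can end.

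Total counts ranged from 6702120 to 29486283 per library, with the lowest in 6m-D2, and 18S ribosomal RNA took 4.19 to 18.4% of them. Nphs1, the slit diaphragm protein nephrin, was 112.5 times and Podxl 65.4 times as high in the 3-month control TRAP libraries as in the single whole-kidney library of the series, which allows no test. RNA of other cells was present as well: Kap, an androgen-regulated gene of proximal tubules, reached 3079.9 CPM (counts scaled to equal library size, per 1e6) in 24w-CT. Nos3, which encodes eNOS, measured 3.58, 4.71, 4.70 and 3.10 CPM in 6m-CT, 10.2, 8.64 and 9.59 in 6m-D2, 4.89, 4.33, 7.06, 10.8 and 2.95 in 24w-CT and 17.8, 6.48, 8.13, 5.20 and 4.19 in 24w-D1. Every 6m-D2 library was above every 6m-CT library, with 1.24 ± 0.45 log2 (estimate ± SE, edgeR adjusted p = 0.0614). Its presence in eNOS-/- libraries does not check the label, because a gene count includes transcripts of a disrupted allele. Lepr, the receptor gene mutated in db/db, was at or under 3.97 CPM in the type 2 model and likewise checks nothing. Whether replicates were separate mice is not stated, and the p-values refer to the scatter of these libraries, which may be technical.

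The diabetic change differed between the models for 74 genes, 0.426% of those tested, at an adjusted p under 0.05 in edgeR's quasi-likelihood test (such genes are named called). Relative to type 1, 44 were higher in type 2 (0.254%) and 30 lower (0.173%). The type 2 effect alone called 2885 genes (16.6%), 1500 up and 1385 down. The type 1 effect called 257 genes (1.48%), 163 up and 94 down. Of the 74 genes, 69 were called in type 2 only, 2 in type 1 only (Gm16010 and Retsat) and 3 in both in the same direction (Arhgap11a, Lgals3 and Cyp2a4), and none was called in opposite directions. The type 2 change was the larger in 72 of the 74. In TRAP, 22 of the 74 were at or above their whole-kidney level, against 48.6% of all genes tested. They were 7 of the 44 higher genes and 15 of the 30 lower genes. The part of cells other than podocytes in the 74 differences was not tested. At an unadjusted p under 0.05 there were 2768 genes for the interaction and 2185 for type 1. Most genes called in type 2, 2813 of 2885, were not called in the interaction, whose median standard error was 0.46 log2 against 0.35 for type 2 and 0.29 for type 1. A call in 1 model alone was therefore not read as a difference between the models.

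**Figure D1:**
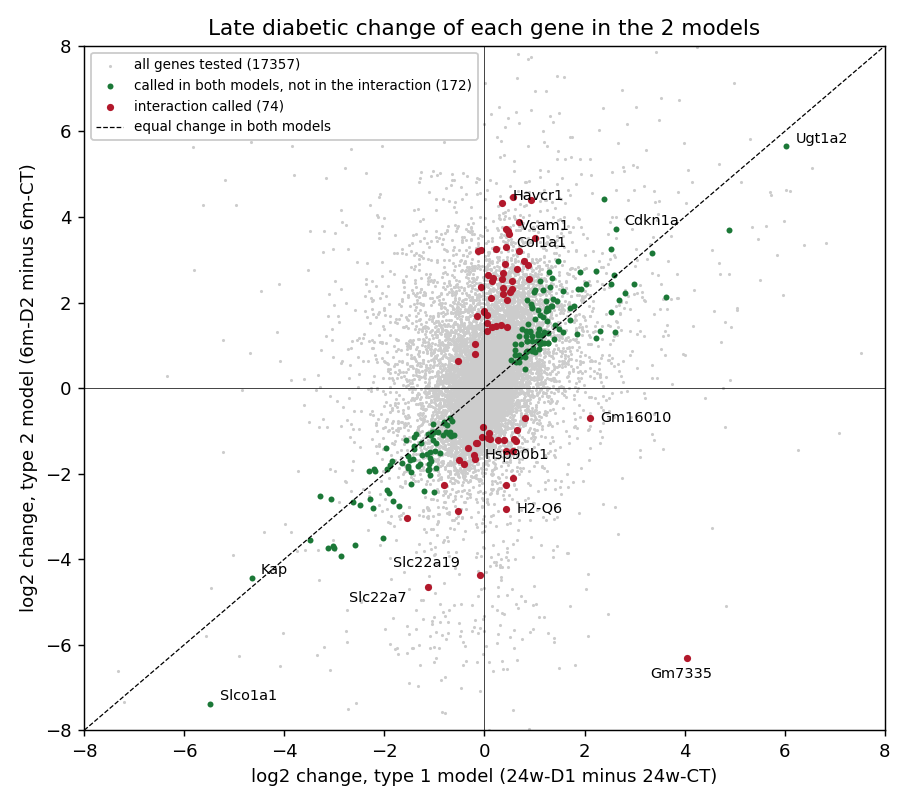
Log2 change of each of 17357 genes in the type 1 model (x axis, 24w-D1 minus 24w-CT) against the type 2 model (y axis, 6m-D2 minus 6m-CT). Grey points are all genes, red the 74 whose changes differed between the models, green the 172 called in both models and not in the interaction, and 3 genes lie outside the axes. Most red points sit near 0 on the x axis and far from 0 on the y axis.

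The number of interaction calls rested on few libraries. It fell to 44, 42, 10 and 5 without 6m-CT-1, 6m-CT-2, 6m-CT-3 and 6m-CT-4 in turn, to 14 without 6m-D2-3, to 35 without 24w-CT-4 and to 11 without 24w-D1-5, and it rose to 503 without 6m-D2-2. Type 2 calls fell to 1205 without 6m-D2-3. Type 1 calls fell to 140, 133, 88 and 153 without 24w-CT-1, 24w-CT-2, 24w-CT-3 and 24w-CT-5 and to 97, 97 and 158 without 24w-D1-2, 24w-D1-3 and 24w-D1-5, and rose to 409 without 6m-D2-3 and to 492 without 24w-D1-4. All 74 genes kept the sign of the interaction in each of the 29 alternative analyses that tested them. The genes were picked by their interaction in these same libraries, so a kept sign is no independent support. Arhgap11a, Slc22a19, Vcam1, Dpysl3 and Rab31 were called in all 17 fits that left out a library. The split depended on the scaling: 73 higher and 23 lower with RLE size factors, 80 and 24 with upper quartile factors, and 117 and 8 on log2(FPKM + 1). With the same scaling and all 36 TRAP libraries in the fit it turned to 33 higher and 48 lower, with 38 of the 74 genes among them. It was 233 and 234 in limma with voom and sample weights, 425 and 213 in DESeq2, 71 and 34 with no filter on low counts, and 118 and 36 with a minimum mean of 10 CPM. For type 2 the split became 1861 and 1099 with upper quartile factors and 2382 and 750 on log2(FPKM + 1), and for type 1 it became 99 and 101 on the FPKM scale. The median interaction over all genes moved with it, from -0.04 to 0.07, 0.08 and 0.12 for the RLE, upper quartile and FPKM scales.

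Genes for protein folding in the endoplasmic reticulum fell together in late type 2 diabetes, and none was called in type 1. Of 21 tested members of this list, 17 fell in type 2 and none rose (7.98% of all genes fell), while none was called in either direction in type 1 (0.542% fell and 0.939% rose). The interaction was below 0 in all 21 and called in 5, against 0.173% of all genes called lower. The median was -0.86 in type 2, -0.15 in type 1 and -0.86 for the interaction, beside -0.02, 0.01 and -0.04 over all genes. In 17 members no 6m-D2 library overlapped a 6m-CT library (29.3% of all genes), against 1 member in the type 1 model (3.17%).

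Hsp90b1, the chaperone also known as GRP94 (chromosome 10, 86690209 to 86705509 of GRCm38), measured 243, 203, 262 and 265 CPM in 6m-CT, 86.2, 81.3 and 79.4 in 6m-D2, 221, 151, 209.9, 176 and 238 in 24w-CT and 166, 148, 193, 181 and 169 in 24w-D1. The 3 libraries of 6m-D2 lay far below all others, and the type 1 groups overlapped. Its change was -1.56 ± 0.18 log2 (estimate ± SE) in type 2 and -0.22 ± 0.14 in type 1, and the interaction was -1.34 ± 0.22 (edgeR adjusted p = 0.0165). Pdia4, a protein disulphide isomerase (chromosome 6, 47796141 to 47813430), measured 144, 113, 193 and 159 CPM in 6m-CT, 44.5, 52.97 and 35.0 in 6m-D2, 113, 89.1, 118, 103 and 134 in 24w-CT and 57.5, 80.1, 101, 87.3 and 93.3 in 24w-D1. Again 6m-D2 did not overlap any other group, and its interaction was -1.37 ± 0.27 (adjusted p = 0.0263). Sdf2l1, a subunit of a chaperone complex (chromosome 16, 17130138 to 17132383), measured 35.8, 18.8, 42.7 and 40.6 CPM in 6m-CT, 6.50, 5.86 and 1.151 in 6m-D2, 23.3, 19.6, 27.3, 12.3 and 30.9 in 24w-CT and 13.3, 17.9, 18.8, 16.8 and 11.4 in 24w-D1. All 6m-D2 values were under every other, and its interaction of -2.33 ± 0.51 (adjusted p = 0.0464) was the largest of the list in size. Sdf2l1 was also named by a rule that asked for no overlap of 6m-D2 and 6m-CT, so that separation adds no support. Herpud1, which acts in the degradation of misfolded proteins (chromosome 8, 94386438 to 94395377), measured 166, 208, 283 and 278 CPM in 6m-CT, 116, 103 and 82.5 in 6m-D2, 214, 241, 182, 174 and 156 in 24w-CT and 234, 262, 317, 156 and 196 in 24w-D1. All 6m-D2 values were under the lowest of 6m-CT, and the type 1 change had the other sign, with -1.22 in type 2, 0.27 in type 1 and an interaction of -1.48 ± 0.31 (adjusted p = 0.0324). Hyou1, a large chaperone, was the other member called, at -1.14 ± 0.24 (adjusted p = 0.035).

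The central chaperone Hspa5, also known as BiP, missed the threshold of the interaction. It measured 448, 289.8, 565 and 526 CPM in 6m-CT, 135, 143 and 93.5 in 6m-D2, 309, 319, 297, 203 and 430.3 in 24w-CT and 226, 249.9, 361, 205 and 181 in 24w-D1. It fell in type 2 by 1.88 log2 (adjusted p = 0.000194), and its interaction was -1.53 ± 0.35 (95% interval -2.26 to -0.80, adjusted p = 0.0512). The list also holds sensors and transcription factors of the unfolded protein response. Xbp1 and Atf6, transcription factors that switch on chaperone genes, fell in type 2 by 0.79 and 0.64 log2, with interactions of -0.55 and -0.70 that were not called. Ern1 and Eif2ak3, the sensors IRE1 and PERK, were not called in either model, with 0.16 and -0.19 in type 2 and 0.26 and 0.52 in type 1. Lman1 and Lman2l, carriers of glycoproteins out of the endoplasmic reticulum that were noticed after their values were seen, were also called, at -1.14 and -1.18. Lman1 was called in 13 and Lman2l in 2 of the 17 fits that left out a library.

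**Figure D2:**
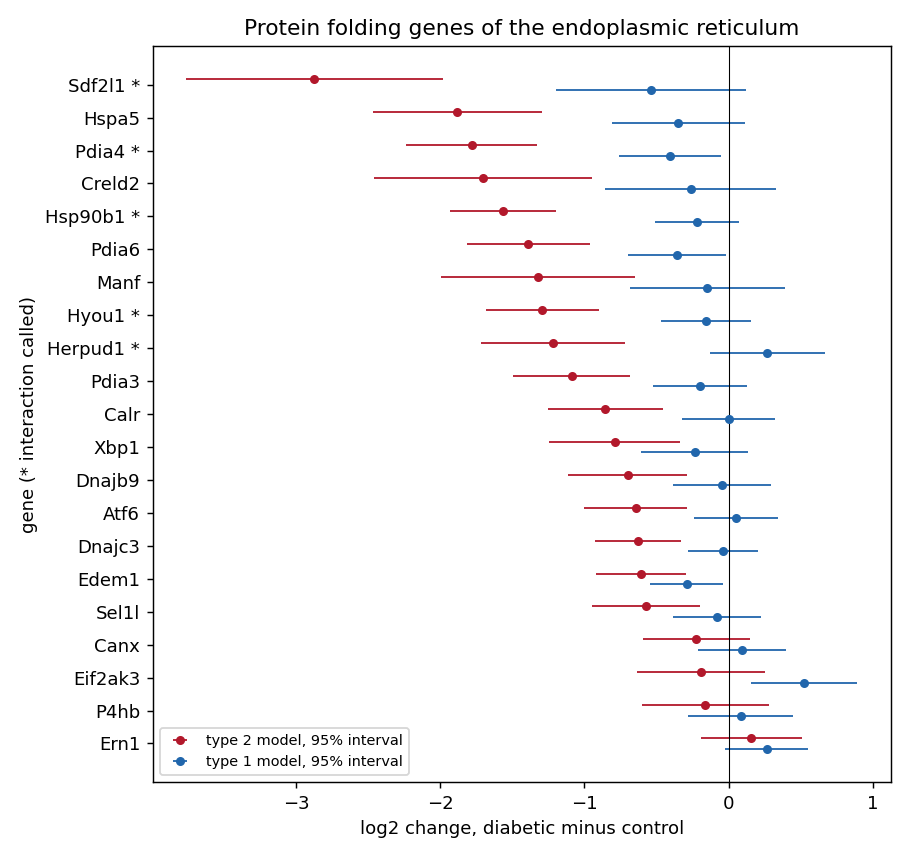
Log2 change, diabetic minus control, of 21 protein folding genes in the type 2 model (red) and the type 1 model (blue); points are edgeR estimates, lines their 95% intervals, and an asterisk marks the 5 genes called in the interaction. The red points run from -2.87 for Sdf2l1 to 0.16 for Ern1, and the blue points stay between -0.54 and 0.52.

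Chaperone promoters are known for the endoplasmic reticulum stress element ERSE (CCAAT, any 9 bases, CCACG), which ATF6 binds together with NF-Y, and its variant ERSE-II (ATTGG, any 1 base, CCACG). Both were searched on both strands in the 250 bases before the start of each RefSeq promoter (GRCm38.p6). ERSE was in 7 and ERSE-II in 1 of 18 list members that had an entry, against 0.113% and 0.0304% of 32851 promoters. Of the 4 interaction-called members with an entry, Hsp90b1 and Herpud1 held a match, and Pdia4 and Sdf2l1 did not. The 4 promoters are shown because they belong to the genes that differed between the models or, for Hspa5, to the central chaperone, and capitals mark the matches. They lie at chr10:86705445-86705694 (Hsp90b1, minus strand), chr8:94386179-94386428 (Herpud1, plus strand), chr2:34771840-34772089 (Hspa5, plus strand) and chr16:17132384-17132633 (Sdf2l1, minus strand, no match), each written 5′ to 3′ along its gene.
Hsp90b1: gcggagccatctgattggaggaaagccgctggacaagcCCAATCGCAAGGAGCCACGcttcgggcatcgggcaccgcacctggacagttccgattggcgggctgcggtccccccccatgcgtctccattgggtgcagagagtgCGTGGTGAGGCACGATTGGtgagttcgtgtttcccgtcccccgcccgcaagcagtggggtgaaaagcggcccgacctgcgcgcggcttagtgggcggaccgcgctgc
Herpud1: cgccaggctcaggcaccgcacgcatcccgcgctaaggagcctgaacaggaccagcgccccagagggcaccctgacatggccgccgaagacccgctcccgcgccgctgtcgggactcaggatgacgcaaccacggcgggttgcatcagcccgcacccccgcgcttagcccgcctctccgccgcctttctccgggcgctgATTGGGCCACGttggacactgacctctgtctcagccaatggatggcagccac
Hspa5: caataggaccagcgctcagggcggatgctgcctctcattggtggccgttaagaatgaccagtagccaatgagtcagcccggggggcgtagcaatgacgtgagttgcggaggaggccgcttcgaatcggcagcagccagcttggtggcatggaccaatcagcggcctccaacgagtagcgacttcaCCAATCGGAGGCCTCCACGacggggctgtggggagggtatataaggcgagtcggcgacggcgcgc
Sdf2l1: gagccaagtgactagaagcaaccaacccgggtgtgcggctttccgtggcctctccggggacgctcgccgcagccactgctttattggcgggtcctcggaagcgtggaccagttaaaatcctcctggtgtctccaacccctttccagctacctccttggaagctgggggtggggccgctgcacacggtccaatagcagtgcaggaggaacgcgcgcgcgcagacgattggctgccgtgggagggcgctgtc
Hsp90b1 held 2 matches, 1 on each strand. A match of letters is a description of these windows and was not tested as a binding site.

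The count of 5 members in the interaction was sensitive to single libraries: it was 0 without 6m-CT-4, 1 without 6m-CT-3, 6m-D2-3, 24w-CT-4 or 24w-D1-5, and 2 or 3 without 6m-CT-1, 6m-D2-1, 24w-CT-1, 24w-CT-2, 24w-CT-3 or 24w-D1-2. DESeq2 called 10, and limma on the FPKM scale called 0. The fall in type 2 was less so, with 10 to 17 of 21 members called in every alternative, 11 of them without 6m-D2-3. The list median of the interaction was -0.74 to -0.57 under the other scalings. Members were 0.476 to 2.81 times as high in TRAP as in whole kidney. At or above its level were 16 of the 21, against 48.6% of all genes tested. Of the podocyte genes, 6 of 15 slit diaphragm members and 12 of 24 others fell in type 2 as well, and their part in this result was not tested. In bulk RNA fewer cells of a type and less RNA per cell cannot be told apart.

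Several genes of tubular injury, adhesion and scar matrix rose in type 2 by more than they changed in type 1. Vcam1, Havcr1, Slc34a2, Cep85 and Col1a1 were named by a rule that asked for no overlap of 6m-D2 and 6m-CT. Their separation of these groups therefore adds no support, and 72 of the 74 called genes showed it. Vcam1, a surface protein that binds white blood cells (chromosome 3, 116109949 to 116129688), measured 6.07, 5.71, 3.78 and 4.24 CPM in 6m-CT, 64.2, 38.4 and 78.8 in 6m-D2, 8.50, 5.21, 7.34, 20.2 and 7.78 in 24w-CT and 15.6, 13.1, 18.6, 12.0 and 9.68 in 24w-D1. Its 6m-D2 libraries lay above every other library, while the type 1 groups overlapped through 24w-CT-4. It rose by 3.61 ± 0.38 log2 in type 2 and its type 1 change was 0.49 ± 0.30, giving an interaction of 3.12 ± 0.47 (edgeR adjusted p = 0.00617). Havcr1, the kidney injury molecule KIM-1 (chromosome 11, 46735080 to 46779578), measured 1.34, 1.59, 3.78 and 3.62 CPM in 6m-CT, 60.1, 40.1 and 56.9 in 6m-D2, 4.08, 3.31, 4.73, 19.4 and 8.78 in 24w-CT and 2.50, 12.5, 17.8, 11.9 and 6.82 in 24w-D1. It too was highest in all 3 libraries of 6m-D2, with an interaction of 3.97 ± 0.80 (adjusted p = 0.0358). This was called in 9 of the 17 fits that left out a library. Slc34a2, a sodium phosphate cotransporter (chromosome 5, 53038081 to 53071664), measured 2.17, 3.49, 1.89 and 0.896 CPM in 6m-CT, 44.1, 25.8 and 62.7 in 6m-D2, 2.74, 2.37, 1.13, 6.16 and 4.36 in 24w-CT and 3.52, 4.86, 9.46, 7.60 and 6.71 in 24w-D1. The interaction was 3.46 ± 0.62 (adjusted p = 0.0239), from 4.39 in type 2 and 0.93 in type 1. Cep85, a centrosomal protein gene (chromosome 4, 134129858 to 134187112), measured 36.8, 39.2, 40.5 and 46.7 CPM in 6m-CT, 339.7, 86.2 and 725 in 6m-D2, 46.8, 82.9, 51.7, 65.3 and 44.9 in 24w-CT and 68.3, 55.9, 70.8, 38.5 and 45.9 in 24w-D1. It rose in type 2 with a wide spread, and its interaction was 3.29 ± 0.58 (adjusted p = 0.0239). A small nucleolar RNA gene lies within Cep85 on the same strand, so reads of the pair could be split in counting. Annotated antisense genes overlap Vcam1 and Slc34a2 here, and Herpud1, Nphs1, Nos3, Keg1, Pdgfa and Pdgfb elsewhere in the text. Other genes on the opposite strand overlap Hsp90b1, Retsat, Cdkn1a, B4galnt1, Lman2l, Cyp51 and Rpl10a, among others. Reads of those pairs cannot be told apart without a strand setting.

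Of the 11 tubular injury markers, all 11 rose in type 2 (8.64% of all genes) and 2 in type 1 (0.939%), Spp1 and Krt18, and 2 were called in the interaction, Vcam1 and Havcr1. The median was 3.01 in type 2, 1.04 in type 1 and 1.98 for the interaction. Lcn2, a secreted injury marker, was just outside the threshold, with 4.92 in type 2, 1.55 in type 1 and an interaction of 3.37 ± 0.76 (adjusted p = 0.0501). All 11 markers were lower in TRAP than in whole kidney, at 0.294 to 0.690 times its level. The part of cells other than podocytes in these rises was not tested.

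The list of transforming growth factor beta and fibrosis genes had 24 tested members, of which 11 rose in type 2 (8.64% of all genes), 1 rose in type 1 (Thbs1, an activator of this factor, against 0.939%) and none fell in either. The interaction was called for 3, all higher (0.254% of all genes): Col1a1, Col3a1 and Mmp14. Col1a1, the main chain of type I collagen (chromosome 11, 94936224 to 94953042), measured 12.8, 23.5, 29.3 and 15.0 CPM in 6m-CT, 376, 159 and 265 in 6m-D2, 23.6, 34.9, 30.9, 93.8 and 35.5 in 24w-CT and 67.3, 58.5, 46.1, 84.5 and 36.9 in 24w-D1. The 3 libraries of 6m-D2 were above all 14 others, 24w-CT-4 was the highest control, and the interaction was 3.30 ± 0.57 (adjusted p = 0.0239). Col3a1, the chain of type III collagen (chromosome 1, 45311538 to 45349706), measured 20.9, 27.4, 36.4 and 23.8 CPM in 6m-CT, 239.6, 99.2 and 167 in 6m-D2, 39.0, 46.9, 36.1, 113 and 43.3 in 24w-CT and 63.3, 52.3, 46.4, 86.0 and 42.1 in 24w-D1. Its 6m-D2 libraries overlapped 24w-CT through 24w-CT-4, and its interaction was 2.57 ± 0.49 (adjusted p = 0.0263). Mmp14, a membrane-bound matrix protease (chromosome 14, 54431612 to 54441265), measured 6.90, 10.7, 8.52 and 5.24 CPM in 6m-CT, 59.6, 34.3 and 123 in 6m-D2, 10.1, 11.3, 11.2, 23.5 and 10.1 in 24w-CT and 18.9, 28.2, 22.6, 19.6 and 17.3 in 24w-D1. It was higher in every 6m-D2 library than in any other, with an interaction of 2.52 ± 0.47 (adjusted p = 0.0239). The ligand Tgfb1 and its receptor Tgfbr1 rose in type 2 (1.25 and 1.18) and had interactions of 0.90 and 0.97 that were not called (adjusted p = 0.0747 and 0.0979). The list median was 1.23 in type 2, 0.47 in type 1 and 0.80 for the interaction. None of the 3 remained called without 6m-CT-4, 6m-D2-3 or 24w-D1-5, 1 did without 6m-CT-3, and 6 members were called without 6m-D2-2. The 3 also lost their call with all 36 TRAP libraries in the fit. The same held without 6m-D2-3, 24w-CT-2 and 24w-D1-3 together, the libraries of lowest podocyte score in their groups.

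**Figure D3:**
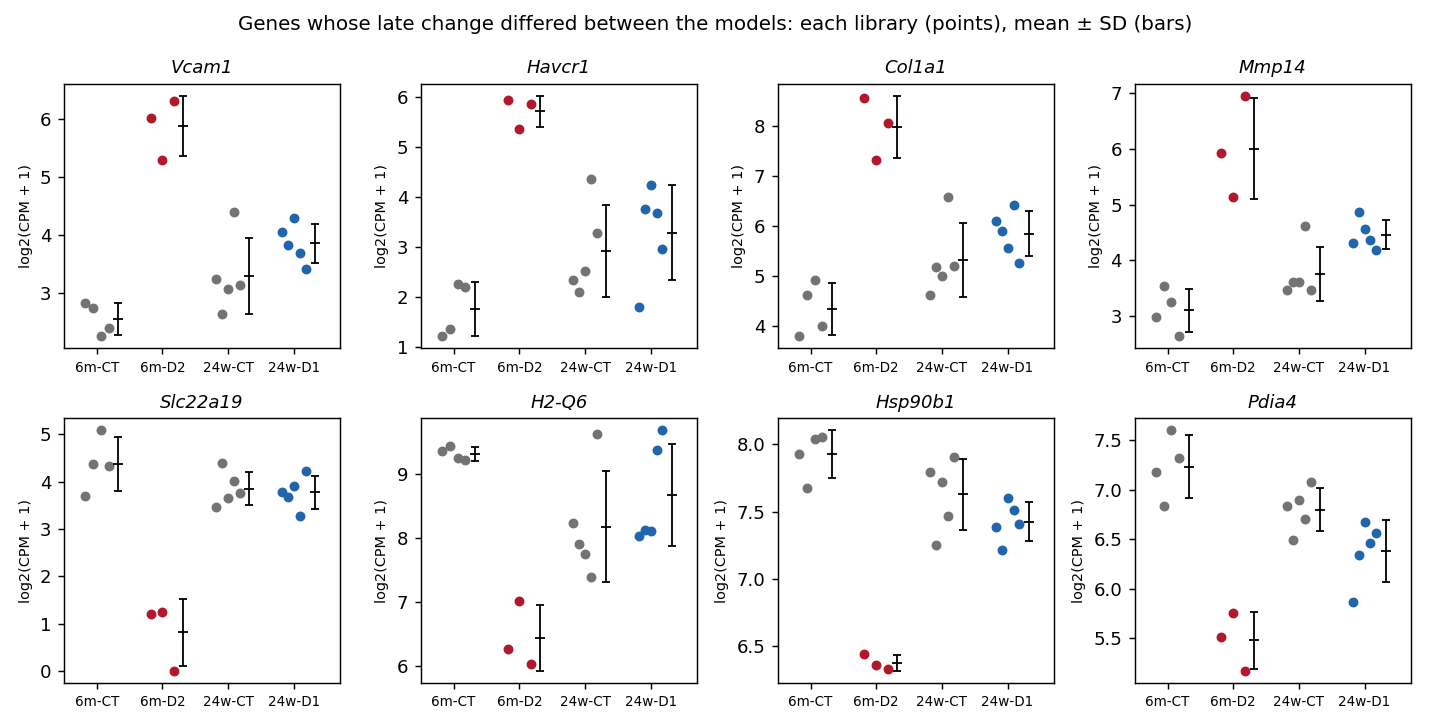
log2(CPM + 1) of 8 genes called in the interaction, 1 point per library in the 4 groups, with bars for the mean ± SD. In the upper row (Vcam1, Havcr1, Col1a1, Mmp14) the 3 libraries of 6m-D2 sit above the rest, in the lower row (Slc22a19, H2-Q6, Hsp90b1, Pdia4) below it, and 24w-D1 overlaps 24w-CT in all 8. Vcam1, Havcr1, Col1a1, Slc22a19 and H2-Q6 were picked by a rule under which 6m-D2 and 6m-CT do not overlap.

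Markers of some other cell types rose in the same libraries, and those of others mostly did not. In type 2, 6 of 12 mesangial and smooth muscle and 5 of 8 parietal epithelium markers rose. So did 1 of 13 endothelial and 1 of 9 collecting duct markers. Of 10 loop and distal tubule markers, 0 rose and 2 fell (7.98% of all genes fell). Over all genes 8.64% rose in type 2, 0.939% rose in type 1 and 0.254% were called higher in the interaction. Of 8 fibroblast markers, 3 rose in type 2 (Col1a1, Col3a1 and Pdgfra), 0 in type 1 and 2 were called in the interaction (Col1a1 and Col3a1), with summed levels of 275 to 519 CPM in 6m-CT, 522 to 1031 in 6m-D2, 291 to 596 in 24w-CT and 231 to 635 in 24w-D1. Lum was near 0, and Col1a2, 6.26 times as high in TRAP as in kidney, changed little (-0.31 and -0.45). Of 15 macrophage markers, 11 rose in type 2, 1 in type 1 (C1qa) and 0 were called in the interaction, with 81.8 to 129, 206 to 361, 94.3 to 173 and 157 to 318 CPM in the same order of groups. Of 7 tested lymphocyte and neutrophil markers, 2 rose in type 2 (Ptprc and Cd3e) and none in type 1, with 6.84 to 14.9, 17.1 to 63.2, 7.70 to 17.3 and 11.7 to 28.8 CPM in the same order. Ly6g was at 0 in all 17 libraries, and Ms4a1, S100a8 and S100a9 were at 0 in 12 or 13 of them. Among 23 genes of chemokines, adhesion and NF-kB, 12 rose in type 2, 1 rose in type 1 (Spp1) and Vcam1 was called in the interaction. Their part in the collagen and adhesion results was not tested.

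Among 21 vascular factors 2 were called in the interaction, Pdgfb and Pdgfa, which encode chains of platelet-derived growth factor (0.254% of all genes were called higher). Pdgfb measured 41.9, 42.6, 49.8 and 39.7 CPM in 6m-CT, 97.1, 91.0 and 80.5 in 6m-D2, 45.9, 41.2, 51.6, 59.2 and 54.0 in 24w-CT and 31.1, 54.8, 43.8, 50.6 and 41.9 in 24w-D1. All 3 libraries of 6m-D2 were above the other 14, and the interaction was 1.22 ± 0.24 (adjusted p = 0.0239). Pdgfa had 1.46 in type 2 and 0.22 in type 1, with an interaction of 1.24 ± 0.27 (adjusted p = 0.0462). Pdgfb was called in 14 of the 17 fits that left out a library and lost its call without 6m-CT-3, 6m-CT-4 or 24w-D1-5. Pdgfa was called in 5 of the 17, those without 6m-CT-1, 6m-D2-2, 6m-D2-3, 24w-CT-2 or 24w-D1-3. Vegfa, the factor by which podocytes sustain the glomerular endothelium, fell in type 2 by 1.28 log2, and its interaction was -0.88 ± 0.41 (95% interval -1.73 to -0.03, adjusted p = 0.291).

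Of the 5 lowest interactions among called genes of at least 10 CPM whose 6m-D2 and 6m-CT libraries did not overlap, 3 belonged to transporters of proximal tubules, Slc22a19, Slc22a7 and Slc7a12. The other two were H2-Q6 and Sdf2l1. Slc22a19, an organic anion transporter (chromosome 19, 7673061 to 7711310), measured 11.9, 19.6, 32.9 and 19.2 CPM in 6m-CT, 1.31, 1.36 and 0 in 6m-D2, 10.02, 19.9, 11.5, 15.1 and 12.6 in 24w-CT and 12.8, 11.7, 14.1, 8.71 and 17.6 in 24w-D1. It was nearly absent from 6m-D2 and overlapped between the other 3 groups, with -4.36 ± 0.52 log2 in type 2, -0.09 ± 0.34 in type 1 and an interaction of -4.27 ± 0.60 (adjusted p = 0.00617). Slc22a7, another organic anion transporter (chromosome 17, 46432185 to 46438477), measured 12.1, 28.6, 31.8 and 32.5 CPM in 6m-CT, 1.149, 0.68 and 1.41 in 6m-D2, 19.5, 56.7, 43.9, 33.4 and 11.4 in 24w-CT and 8.52, 14.7, 25.7, 9.001 and 17.9 in 24w-D1. All 6m-D2 values were at or under 1.41 CPM, and the interaction was -3.53 ± 0.70 (adjusted p = 0.0324). Slc7a12, an amino acid transporter (chromosome 3, 14480697 to 14505830), measured 24.2, 31.7, 31.0 and 16.0 CPM in 6m-CT, 7.53, 8.11 and 1.92 in 6m-D2, 14.2, 11.2, 6.64, 12.7 and 24.5 in 24w-CT and 11.2, 18.4, 23.6, 24.8 and 24.2 in 24w-D1. The 6m-D2 libraries were under all of 6m-CT, the type 1 groups overlapped, and the interaction was -2.65 ± 0.55 (adjusted p = 0.0358). These transporters stood at 0.404, 0.626 and 0.262 times the whole-kidney level in TRAP. Slc22a19 was called in all 17 fits that left out a library, Slc22a7 in 9 and Slc7a12 in 6. Of 24 proximal tubule markers, 15 fell in type 2 (7.98% of all genes), 3 fell in type 1 (Slc22a8, Ass1 and Cyp2e1, against 0.542%) and none was called in the interaction, with a median of -1.01 in type 2, -0.23 in type 1 and -0.61 for the interaction. The summed level of these markers was 14712 to 17383 CPM in 6m-CT, 4834 to 11272 in 6m-D2, 13397 to 19255 in 24w-CT and 8998 to 16048 in 24w-D1. The count of 15 was 8 without 6m-D2-3. The count of 3 was 1 without any 1 of 6m-CT-1, 6m-CT-2, 6m-CT-4, 24w-CT-1, 24w-CT-2, 24w-CT-3, 24w-CT-5, 24w-D1-2, 24w-D1-3 and 24w-D1-5, and 6 with DESeq2. Whether the fall of the transporters goes with that of tubular RNA in general was not tested.

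H2-Q6 was the called gene most enriched in TRAP, at 51.5 times its kidney level. This MHC class I gene (chromosome 17, 35424850 to 35430055) measured 656, 694, 606 and 593 CPM in 6m-CT, 75.8, 128 and 64.0 in 6m-D2, 298, 239, 214, 166 and 791 in 24w-CT and 259, 279, 276, 665 and 821 in 24w-D1. It fell in type 2, where the groups were far apart (-2.84 ± 0.55), and in both type 1 groups its libraries lay in a lower range of 166 to 298 CPM and a higher one of 665 to 821 CPM. The interaction was -3.27 ± 0.67 (adjusted p = 0.0428) and was called in 5 of the 17 fits that left out a library. H2-Q genes are near-identical copies of each other, so counts can be split between them. Gm7335, the other called gene over 4 times as high in TRAP, lies on the same chromosome (chromosome 17, 37713552 to 37713924) and measured 0, 2.28, 2.18 and 4.00 CPM in 6m-CT, 0, 0.0523 and 0 in 6m-D2, 0.0582, 0, 0.0706, 0.0531 and 0.413 in 24w-CT and 3.24, 1.35, 0.313, 4.33 and 1.23 in 24w-D1. It was above 1 CPM in 3 of 4 libraries of 6m-CT and 4 of 5 of 24w-D1, and in no library of 6m-D2 or 24w-CT, so no fold is given.

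Genes called higher in type 1 and not called in type 2 were rare among the interaction calls, with 2 of 74. Gm16010 (chromosome 9, 97015966 to 97022043) measured 7.73, 9.63, 7.65 and 19.7 CPM in 6m-CT, 4.87, 11.5 and 3.97 in 6m-D2, 7.28, 12.9, 8.12, 13.1 and 12.1 in 24w-CT and 62.9, 24.3, 45.2, 30.5 and 66.7 in 24w-D1. All 5 libraries of 24w-D1 were above all others, with 2.10 ± 0.35 in type 1 (adjusted p = 0.00369), -0.71 ± 0.42 in type 2 and an interaction of -2.81 ± 0.55 (adjusted p = 0.0263). It lies within Spsb4 on the opposite strand, and without a stated strand setting reads of the pair cannot be told apart. Retsat, retinol saturase (chromosome 6, 72598475 to 72608425), measured 54.6, 52.8, 72.7 and 57.4 CPM in 6m-CT, 43.5, 34.9 and 31.2 in 6m-D2, 46.5, 52.1, 72.7, 45.9 and 61.2 in 24w-CT and 79.0, 127, 116, 51.2 and 111 in 24w-D1. The type 1 groups overlapped through 24w-D1-4, and the type 1 rise of 0.80 ± 0.20 had an adjusted p of 0.0498, close to the threshold. In type 2 Retsat changed by -0.70 ± 0.25 (edgeR adjusted p = 0.0591), and every 6m-D2 library was below every 6m-CT library. Its interaction was -1.50 ± 0.32 (adjusted p = 0.0404). The interaction was called for Gm16010 in 12 and for Retsat in 5 of the 17 fits that left out a library.

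Interferon and MHC genes had a similar number of calls in each model, and a difference between the models was not called for any of them. Of 24 tested members, 6 rose in type 1 (Irf7, Ifit1, Ifit3, Bst2, H2-K1 and Cd74), against 0.939% of all genes. In type 2, 5 rose (Irf7, H2-Aa, H2-Eb1, Cd74 and Ciita), against 8.64% of all genes. At an unadjusted p under 0.05, 7 were lower in the interaction, beside 1502 of 17357 genes. The median was 1.32 in type 1, 0.54 in type 2 and -1.05 for the interaction, which was -0.93 to -0.40 under the other scalings. Irf7, a transcription factor of the interferon response, measured 3.64, 9.47, 9.15 and 5.51 CPM in 6m-CT, 15.2, 7.22 and 29.8 in 6m-D2, 7.51, 5.07, 5.93, 10.9 and 5.78 in 24w-CT and 77.8, 33.7, 45.2, 25.7 and 33.6 in 24w-D1. Every 24w-D1 library exceeded every 24w-CT library, and 6m-D2 overlapped 6m-CT. Its change was 2.61 ± 0.38 in type 1 and 1.30 ± 0.44 in type 2, with an interaction of -1.30 ± 0.58 (95% interval -2.51 to -0.10, adjusted p = 0.273). The mean log2(CPM + 1) of the list was 6.39 in 24w-D1-3, against 4.66 to 5.16 in the other 24w-D1 libraries. The count of members called in type 1 fell from 6 to 2 without 24w-D1-3, 24w-CT-1, 24w-CT-2 or 24w-CT-3, and to 3 without 6m-CT-2, 6m-D2-1, 24w-CT-4, 24w-D1-2 or 24w-D1-5. The count in type 2 fell from 5 to 0 without 6m-D2-1 or 6m-D2-3, to 1 without 6m-CT-4, to 2 without 6m-CT-1 or 6m-CT-3 and to 3 without 6m-CT-2 or 24w-CT-5, and rose to 8 without 24w-D1-3.

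A part of the podocyte genes fell in type 2, and the difference from type 1 was not called for any of them. Of 15 slit diaphragm genes, 6 fell (7.98% of all genes) and 1 rose (Cdh3, a cadherin) in type 2, and none was called in type 1. Nphs1 (chromosome 7, 30458315 to 30487223) measured 1226, 1572, 1653 and 1541 CPM in 6m-CT, 321, 427 and 101 in 6m-D2, 1329, 696, 992, 1025 and 1368 in 24w-CT and 444, 601, 336, 1032 and 1329.9 in 24w-D1. The 6m-D2 libraries lay below every other library except 24w-D1-3, and the 24w-D1 libraries spread over the range from 6m-D2 to the controls. It changed by -2.40 ± 0.47 in type 2 (adjusted p = 0.00197) and -0.53 ± 0.36 in type 1, with an interaction of -1.87 ± 0.57 (95% interval -3.06 to -0.68, adjusted p = 0.124). Of 24 other podocyte genes, 12 fell in type 2 and none was called in type 1 or in the interaction. Wt1, a transcription factor that podocytes depend on, measured 1962, 1515, 1990.1 and 1849.6 CPM in 6m-CT, 571, 1070.0 and 168 in 6m-D2, 1805, 601, 982, 909 and 1799 in 24w-CT and 432, 915, 338, 1129 and 1161 in 24w-D1. Its type 2 change was -1.60 ± 0.54 (adjusted p = 0.0509) and its interaction -0.98 ± 0.68 (95% interval -2.40 to 0.44), an interval too wide to show whether the models differ. Podxl, a sialoprotein of the foot processes, fell in type 2 by 1.68 log2 (adjusted p = 0.0224), with an interaction of -1.36 ± 0.61 (adjusted p = 0.275). Synpo, an actin-binding protein of foot processes, had -1.36 in type 2, -0.35 in type 1 and an interaction of -1.005 ± 0.65 (adjusted p = 0.468).

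The medians of the podocyte lists were -1.25 and -1.36 in type 2, -0.23 and -0.36 in type 1, and -1.02 and -0.93 for the interaction. At an unadjusted p under 0.05, 6 of 15 and 9 of 24 members were lower in the interaction, beside 1502 of 17357 genes. Among 633 genes at least 4 times as high in TRAP as in kidney, 200 fell in type 2 (7.98% of all genes fell). In type 1 there were 2 that rose (Arntl and Cerk, against 0.939% of all genes). A lower interaction at an unadjusted p under 0.05 was found for 149. The medians of the 633 were -0.93 in type 2, -0.22 in type 1 and -0.74 for the interaction. The summed level of the 15 slit diaphragm genes was 17348 to 22814 CPM in 6m-CT, 3013 to 10006 in 6m-D2, 7986 to 18455 in 24w-CT and 4438 to 18442 in 24w-D1. Without 6m-D2-3, 2 instead of 7 slit diaphragm genes and 2 instead of 12 other podocyte genes were called in type 2. Without 6m-D2-1 these counts were 4 and 6, and without 6m-D2-2 they were 10 and 19. The other podocyte genes numbered 7 without any 1 of 6m-CT-1, 6m-CT-3 and 6m-CT-4. Rpl10a, a ribosomal protein gene, changed by -1.11 ± 0.32 in type 2 and -0.58 ± 0.26 in type 1, with an interaction of -0.53 ± 0.40 (adjusted p = 0.547).

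Genes of the glomerular basement membrane moved in both directions in type 2. Of 20 genes, 6 rose and 6 fell in type 2 (8.64% and 7.98% of all genes), and none was called in type 1 or in the interaction. The count of 12 was 4 without 6m-D2-3. The fallers included Col4a3 (-1.41), Col4a4 (-1.01) and Col4a5 (-1.27), the collagen IV chains that podocytes make, and Lamb2 (-1.35), the laminin chain of the mature membrane. The risers included Col4a1 (1.52) and Col4a2 (1.58), the chains of the embryonic and mesangial network, and Nid1 (1.53). In type 1 the same 7 genes stood between -0.22 and 0.84. Their interactions ran from -1.27 to 1.02, with adjusted p-values of 0.148 or more.

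Genes of oxidative phosphorylation, the respiratory chain of mitochondria, fell in part in type 2. Of 30 members, 14 fell in type 2 (7.98% of all genes) and none was called in type 1 or in the interaction. All 30 interaction estimates were below 0, and 14 had an unadjusted p under 0.05, beside 1502 of 17357 genes lower at that level. The median was -0.61 in type 2, -0.03 in type 1 and -0.63 for the interaction. Atp5b, the catalytic subunit of ATP synthase, measured 1256, 1272, 1276 and 1354 CPM in 6m-CT, 842, 810.0 and 457 in 6m-D2, 1226, 1425, 1352, 1146 and 1192 in 24w-CT and 1300.1, 1544, 1666, 937 and 1179 in 24w-D1. All 3 libraries of 6m-D2 were under every other library, and the interaction was -0.94 ± 0.31 (95% interval -1.57 to -0.30, adjusted p = 0.143). Uqcrc2, of complex III, had the lowest adjusted p of the list, 0.0849, with -0.97 ± 0.26. In TRAP 29 of the 30 genes were lower than in whole kidney, and the proximal tubule markers, rich in mitochondria, fell in the same libraries. Their part in this result was not tested. The count in type 2 was 3 without 6m-D2-3, 7 without 6m-CT-1, and 9 without 6m-CT-2, 6m-CT-3 or 6m-D2-1.

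Most genes called in type 1 were also called in type 2, among them the cell cycle inhibitor Cdkn1a, which rose, and the carboxylesterase Ces1f, which fell. In the same direction, 175 genes were called in both, 98 up and 77 down, and 172 of these (0.991%) were not called in the interaction. No gene was called in opposite directions. The 175 were 68.1% of the type 1 calls and 6.07% of the type 2 calls. Across all genes the 2 changes correlated weakly (Pearson r = 0.29, Spearman rho = 0.357, over genes, which are not independent replicates). The count of 175 fell to 102, 98, 68 and 104 without 24w-CT-1, 24w-CT-2, 24w-CT-3 and 24w-CT-5, to 73, 80 and 113 without 24w-D1-2, 24w-D1-3 and 24w-D1-5, and rose to 296 without 24w-D1-4.

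Cdkn1a, the cell cycle inhibitor p21 (chromosome 17, 29090979 to 29100722), measured 2.88, 3.60, 8.33 and 4.58 CPM in 6m-CT, 37.5, 62.5 and 93.4 in 6m-D2, 11.5, 3.52, 6.07, 6.26 and 9.08 in 24w-CT and 28.9, 62.9, 64.7, 35.2 and 33.5 in 24w-D1. Every diabetic library was above every control of its model, with 3.72 ± 0.43 in type 2 and 2.62 ± 0.36 in type 1 (adjusted p = 3.11e-05 and 0.000926). The interaction was 1.10 ± 0.53 (95% interval -0.02 to 2.22, adjusted p = 0.32). Ugt1a2, a glucuronosyltransferase (chromosome 1, 88200601 to 88218997), measured 1.60, 0.423, 0.194 and 0.103 CPM in 6m-CT, 38.2, 29.3 and 10.6 in 6m-D2, 0.408, 0.608, 1.27, 2.92 and 1.71 in 24w-CT and 61.0, 130.1, 147, 18.5 and 106 in 24w-D1. It rose from near 0 in both models by 5.65 and 6.03 log2, with an interaction whose 95% interval was -2.85 to 2.08, and it shares exons with the other genes of its cluster. Capg, which caps actin filaments (chromosome 6, 72544391 to 72562983), measured 4.98, 6.14, 6.92 and 6.79 CPM in 6m-CT, 22.4, 32.2 and 36.1 in 6m-D2, 4.08, 8.18, 6.29, 13.3 and 7.96 in 24w-CT and 23.4, 30.7, 29.4, 14.3 and 20.2 in 24w-D1. It rose by 2.28 and 1.56, and the interaction interval was -0.15 to 1.58. B4galnt1, an enzyme of ganglioside synthesis (chromosome 10, 127165156 to 127172340), rose by 2.70 and 1.28, and its interaction of 1.42 ± 0.35 was near the threshold (adjusted p = 0.0657). C3, the central complement protein, was chosen after its values were seen and measured 71.9, 48.5, 51.6 and 52.1 CPM in 6m-CT, 1314, 638 and 1635 in 6m-D2, 82.0, 45.9, 54.7, 185 and 85.8 in 24w-CT and 252, 693, 843, 229.7 and 345 in 24w-D1. It rose in both models, by 4.42 and 2.38, and its interaction was 2.04 ± 0.64 (adjusted p = 0.138).

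**Figure D4:**
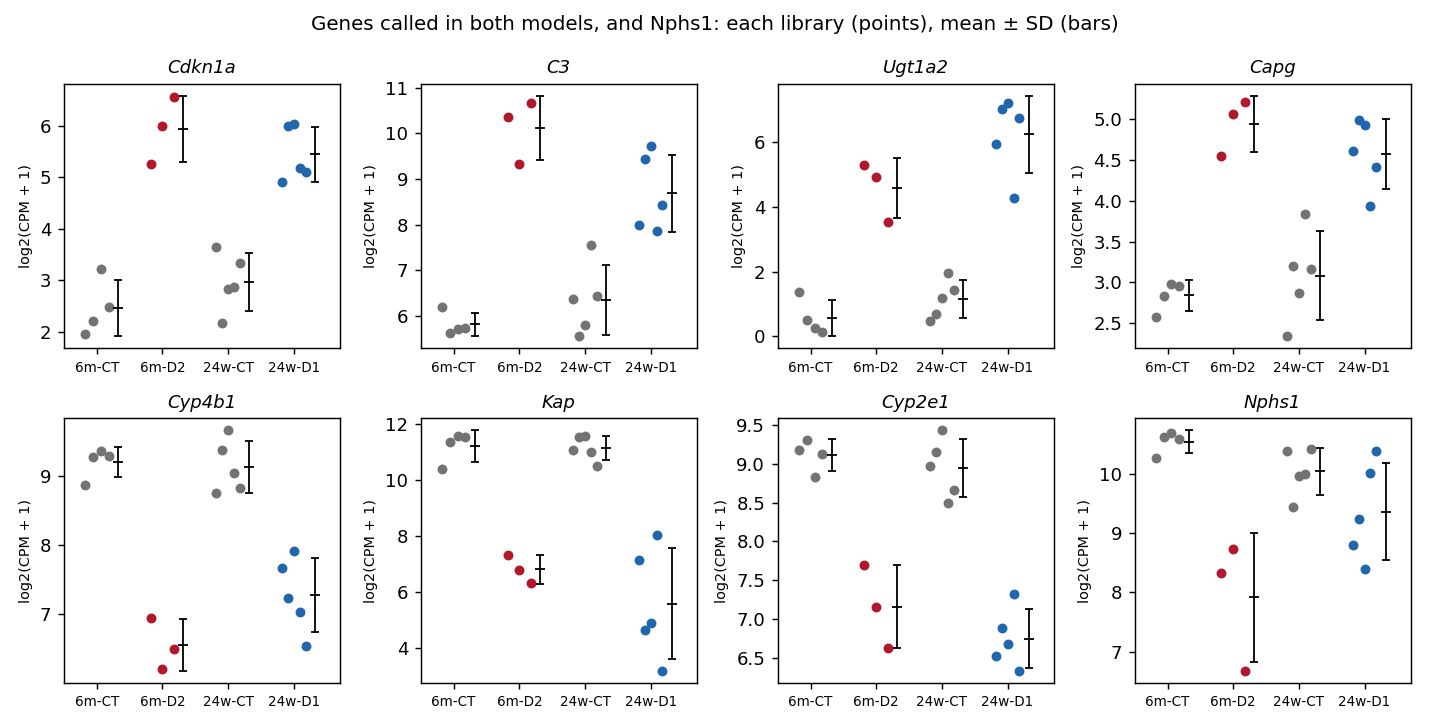
log2(CPM + 1) of 7 genes called in the same direction in both models and of Nphs1, 1 point per library in the 4 groups, with bars for the mean ± SD. Diabetic and control libraries of each model are apart for the 7 shared genes, whereas for Nphs1 24w-D1 overlaps 24w-CT. The 7 are Cdkn1a, C3, Ugt1a2, Capg, Cyp4b1, Kap and Cyp2e1.

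Of the genes lower in both models and not called in the interaction, the 4 most firmly called were Ces1f, Cyp4b1, Keg1 and Acy3. Ces1f, a carboxylesterase (chromosome 8, 93256236 to 93279747), measured 107, 157, 144 and 156 CPM in 6m-CT, 31.3, 22.4 and 22.9 in 6m-D2, 98.4, 162, 181, 121 and 106 in 24w-CT and 44.4, 24.4, 26.4, 54.2 and 29.5 in 24w-D1. It changed by -2.46 and -1.90 log2, with an interaction interval of -1.27 to 0.15. Cyp4b1, a cytochrome P450 (chromosome 4, 115624725 to 115647723), had -2.64 and -1.82, Keg1 (chromosome 19, 12695786 to 12719902) -1.82 and -1.33, and the aminoacylase Acy3 (chromosome 19, 3986661 to 3990007) -2.39 and -1.95. No diabetic library of either model overlapped its controls for these 4 genes. All were at 0.374 to 0.498 times their whole-kidney level in TRAP. Of 6 markers of the male-biased proximal tubule, 6 fell in type 2 (7.98% of all genes; 3 without 6m-D2-3) and 5 in type 1 (all but Slc22a12; 0.542%), with medians of -3.19 and -2.61 and none called in the interaction. Kap, the androgen-regulated gene, measured 1350.5, 2613, 3059.5 and 3025 CPM in 6m-CT, 161, 108 and 78.2 in 6m-D2, 2168, 3009.6, 3079.9, 2048 and 1468 in 24w-CT and 142, 24.1, 28.4, 265 and 8.05 in 24w-D1. It changed by -4.44 and -4.65, and the interaction interval of -1.98 to 2.42 was wide. Y-linked Ddx3y was between 37.0 and 96.4 CPM in all 17 libraries, and Xist was at or under 3.71 CPM, highest in 6m-D2-3. The summed level of these 6 genes was 2808 to 4815 CPM in 6m-CT, 455 to 740 in 6m-D2, 2757 to 5376 in 24w-CT and 452 to 935 in 24w-D1. Of the 172 shared genes, 15 were at or above their whole-kidney level in TRAP, against 48.6% of all genes tested. The part of tubular RNA in these changes was not tested.

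Among p53 target genes, 3 of the 4 called in type 1 were also called in type 2, near the share of 68.1% over all type 1 calls. Of 21 tested, 8 rose in type 2 (8.64% of all genes) and 4 in type 1 (Cdkn1a, Gdf15, Zmat3 and Aen, against 0.939%). The count of 8 was 5 without 6m-D2-3. None fell, and Pmaip1, an inducer of apoptosis, was the only interaction call. Pmaip1 measured 6.197, 7.78, 5.18 and 6.10 CPM in 6m-CT, 34.0, 36.9 and 36.3 in 6m-D2, 13.7, 17.1, 7.91, 9.02 and 13.1 in 24w-CT and 11.1, 28.5, 22.3, 15.1 and 12.8 in 24w-D1. The 3 libraries of 6m-D2 were above all others, with an interaction of 1.94 ± 0.39 (adjusted p = 0.0304) that was called in 11 of the 17 fits that left out a library. Mdm2, the inhibitor of p53, was not called in either model (-0.09 and 0.48).

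**Figure D5:**
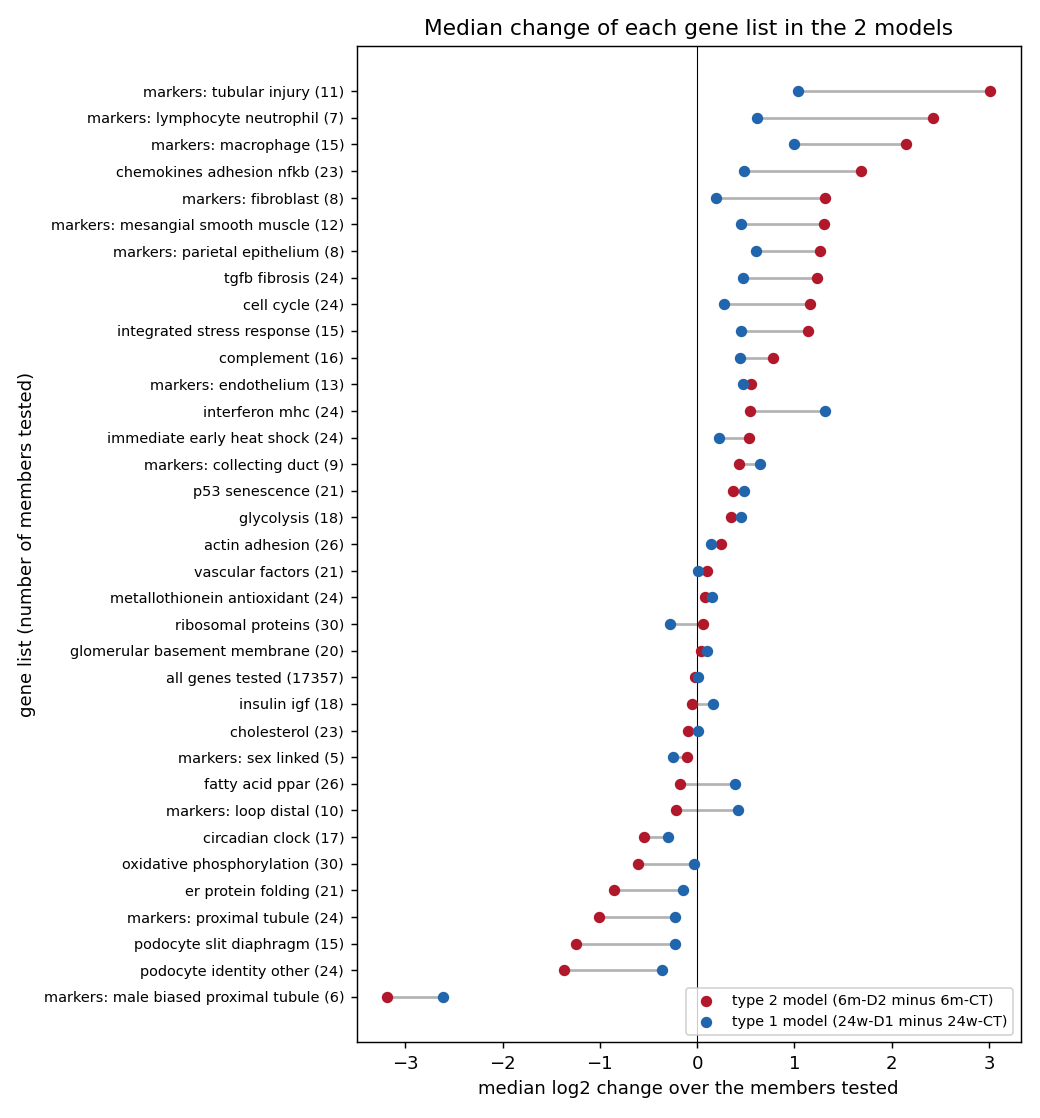
Median log2 change of each of 34 gene lists and of all genes tested, in the type 2 model (red) and the type 1 model (blue), with the number of members tested in parentheses. The tubular injury list has the highest median in type 2 (3.01), the male-biased proximal tubule list the lowest in both models (-3.19 and -2.61), and the interferon and MHC list lies higher in type 1 (1.32) than in type 2 (0.54).

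Most other lists held few or no interaction calls. Cyp51, an enzyme of cholesterol synthesis, was the only one of 23 cholesterol genes, at -1.46 ± 0.32 (adjusted p = 0.047), from -2.26 in type 2 and -0.80 in type 1. Cd44, a hyaluronan receptor that injured glomerular epithelium expresses, was the only one of 8 parietal epithelium markers, at 2.42 ± 0.45 (adjusted p = 0.0239). Pvalb, a calcium-binding protein of the distal convoluted tubule, was the only one of 10 markers of the loop and distal tubule, at -2.69 ± 0.59 (adjusted p = 0.0461). Of the 17 fits that left out a library, 4 called Cyp51, 13 Cd44 and 5 Pvalb. Complement, cell cycle, actin, glycolysis, fatty acid, integrated stress, antioxidant, circadian, immediate early, insulin and ribosomal protein lists had none. In the fatty acid list, Cyp4a10, a target of the receptor PPARA, rose in type 1 (1.68, adjusted p = 0.00267) and had 0.37 in type 2, with an interaction of -1.31 ± 0.41 (adjusted p = 0.133). Lpl, lipoprotein lipase, fell in both models (-2.43 and -1.01), and its interaction was -1.41 ± 0.38 (adjusted p = 0.0868).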

How the data were processed

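TRAP RNA of podocytes was sequenced, with libraries prepared by the Ovation kit after fragmentation to 200 bp, per the labels. The authors deposited raw read counts per gene, and FPKM values of the same genes, for all 37 libraries. Tools in the submitters' processing notes are STAR, featureCounts 1.15.2, cutadapt 1.16 and FastQC, and the build is mm9. The coordinates in the deposited count table overlap GENCODE M21 on GRCm38 for 99.981% of 31871 matched genes and are given as GRCm38 here, although the notes name mm9. The strand setting was not given in the sources used here. From the FPKM values, deposited by the authors, only alternative fits were made.

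Counts were fitted with edgeR 4.0.16 (R 4.3.3): TMM factors, filterByExpr over the 4 groups, 1 robust quasi-likelihood model of the group means over the 17 libraries, and contrasts for the type 2 effect, the type 1 effect and their difference. P-values were adjusted by Benjamini-Hochberg over the 17357 genes tested, with a threshold of 0.05. Standard errors and 95% intervals were derived from the quasi-likelihood F statistic. CPM are counts divided by the TMM-scaled library size, times 1e6. The ratio of TRAP to kidney is (mean CPM in 3-month controls + 0.5) over (CPM in the 1 kidney library + 0.5). The count model was tested on simulated data, in which 100 genes changed 2-fold and 100 changed 4-fold in 6m-D2. At this threshold the interaction called 6 and 48 of them, and 8 genes that did not change. In that setting most 2-fold changes were missed, and unchanged genes were a larger share of the calls than the threshold of 0.05 aims at. No 2 libraries of the same group held identical counts or counts equal within sampling noise. Libraries of different groups were not compared in this way. Total counts, from 6702120 to 29486283 per library, set the precision of low genes; TMM factors assume that most genes do not change.

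Gene lists (22 pathways and 12 marker lists), members and comparisons were chosen with earlier results of these data known. Genes named by rule had a mean of at least 10 CPM and were the 5 highest and 5 lowest interactions among called genes whose 6m-D2 and 6m-CT libraries did not overlap, the called genes of opposite direction (none), those called in type 1 only, the 4 higher and 4 lower genes most firmly shared, up to 3 members of each list with at least 3 interaction calls, and, to check labels, Lepr, Nos3, Rpl10a, Nphs1, Podxl, Synpo and Wt1. All other genes named were chosen after their values were seen, among them Pdgfa, Pdgfb, Pmaip1, Cd44, Pvalb, Cyp51, Irf7, Hspa5 and C3. Alternatives were DESeq2 1.42.0, limma 3.58.1 (voom with sample weights; log2(FPKM + 1) and log2(FPKM + 0.1)), other size factors and filters, all 36 TRAP libraries, genes at least as high in TRAP as in kidney, a replicate block, leaving out each library, and 3 libraries together. Figures were drawn with matplotlib 3.10.9.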

Additional observations from a re-analysis of the deposited data

Results flagged for a closer look

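The change in late diabetes differed between the models, by the test of the difference itself, for 74 genes. Among the genes named by rule these were Havcr1 (interaction 3.97), Slc34a2 (3.46), Col1a1 (3.30), Cep85 (3.29), Vcam1 (3.12), Col3a1 (2.57) and Mmp14 (2.52) on the type 2 side, all log2. On the other side stood Slc22a19 (-4.27), Slc22a7 (-3.53), H2-Q6 (-3.27), Gm16010 (-2.81), Slc7a12 (-2.65), Sdf2l1 (-2.33), Retsat (-1.50), Herpud1 (-1.48), Pdia4 (-1.37) and Hsp90b1 (-1.34).

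Single libraries stood apart from the rest of their group by Dixon's criterion in 12 of 198 tests, where chance at 1 in 20 gives 9.9. The criterion was applied to the groups of 4 and 5 libraries only. The 3 libraries of 6m-D2 were not tested, so it says nothing of 6m-D2-3. The library 24w-CT-4 accounted for 5. It had 93.8 CPM of Col1a1 (others 23.6 to 35.5), 20.2 of Vcam1 (5.21 to 8.50), 23.5 of Mmp14 (10.1 to 11.3) and 113 of Col3a1 (36.1 to 46.9), and a cell cycle score of 2.55 (2.24 to 2.31), a score being the mean log2(CPM + 1) of a list. H2-Q6 was at 791 CPM in 24w-CT-5 (others 166 to 298), and Nos3 at 17.8 CPM in 24w-D1-1 (4.19 to 8.13). Gm16010 was at 19.7 CPM in 6m-CT-4 (7.65 to 9.63), which also had a glycolysis score of 6.38 (6.22 to 6.25). The interferon and MHC score was 6.39 in 24w-D1-3 (4.66 to 5.16), the cell cycle score 2.30 in 6m-CT-2 (2.13 to 2.15), and the male-biased proximal tubule score 7.98 in 6m-CT-1 (8.47 to 8.52).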

How the results depend on the processing

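All 74 interaction calls kept their sign in every alternative that tested them. The alternatives refit the libraries by which these genes were picked, so the kept sign is no independent support. Among the values of the genes named by rule 2483 were on the same side of the threshold, 33 moved past it and 199 fell short of it. Leaving out 1 library gave 5 to 503 interaction calls, 1205 to 3852 in type 2, 88 to 492 in type 1 and 68 to 296 shared by both models. The cause of the changes under the other settings was not tested. DESeq2 gave 638 interaction calls, 594 in type 1 and 376 shared. Voom with sample weights gave 467, 4646 in type 2, 466 in type 1 and 326 shared. On log2(FPKM + 1) there were 125 interaction calls, and on log2(FPKM + 0.1) there were 66, with 164 in type 1 and 112 shared. A minimum mean of 10 CPM gave 154 interaction calls. Genes at least as high in TRAP as in kidney, a smaller set, gave 25, 1191, 6 and 2 in the same order. Without 6m-D2-3, 24w-CT-2 and 24w-D1-3, the libraries of lowest podocyte score in their groups and left out together after seeing the data, there were 28, 1534, 151 and 98. With the replicate number as a block there were 0 interaction calls in edgeR (1900 genes at an unadjusted p under 0.05), 1430 in type 2, 88 in type 1 and 62 shared. The deviations of libraries with the same number correlated at -0.08 to -0.015 over 3 pairs in the type 2 model. In the type 1 model they correlated at -0.058 to 0.164 over 5 pairs, 1 of them over 0.1. So few pairs cannot show whether the numbers pair the libraries, which the labels do not state. No gene was called in opposite directions in the 2 models, against 3 with DESeq2, 1 without 6m-CT-1, 1 without 6m-D2-2 and 3 without 24w-D1-4. Sdf2l1 lost its interaction call in 21 of 29 alternatives, and Retsat its type 1 call in 22 of 28. The median standard error of the interaction was 0.46 log2, with 3 libraries in 6m-D2, and a gene that was not called may still differ between the models.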
